A study of Mus musculus with 4 samples.

Results

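Interferon-high neutrophils are here barcodes from lung that pass a neutrophil rule and hold transcripts of genes that type I interferons induce. Which signal, if any, induced them was not tested. The cells described here were chosen by counts of the same RNA that is reported below, so the choosing counts are a description and not a finding. A barcode was a neutrophil when it had at least 200 genes, at most 10% mitochondrial UMIs (unique molecular identifiers, the counted molecules), at least 2% of its UMIs from S100a8 and S100a9, at least 1 UMI of Csf3r, Cxcr2, Il1r2 or Retnlg, and no UMI of Cd79a, Cd3e or C1qa. It was interferon-high when Ifit1, Ifit2, Ifit3, Ifit3b and Rsad2 summed to at least 3 UMIs, and interferon-zero when that sum was 0. By this rule 681 of 19126 deposited barcodes were interferon-high. Of these, 548 were among 3474 neutrophils of the library labelled Plaur KO and 133 among 2171 neutrophils of the library labelled WT.

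Plaur encodes the urokinase receptor uPAR, and the study set Plaur-/- mice against C57B6/J mice of the same background strain. Both genotypes were sensitized with LPS and ovalbumin on days 0 and 7 and challenged with ovalbumin aerosol on day 14; ages were not given in the sources used here. CD45.2-positive leukocytes, called circulating in one label and a total lung lysate in another, were sorted from digested lung and run as 1 droplet library per genotype, with antibody tags for 5 surface proteins (Ly-6C, CD11b, ST2, CCR3 and CD14) counted in the same cells; the RNA libraries held 47442215 (KO) and 42913843 (WT) UMIs. The design names 8 mice per genotype, and how many went into each library was not given. With 1 library per genotype there is no spread between samples of a genotype, so no difference below was tested, and every interval is a 95% interval for counting error only. In these members Plaur RNA itself stood at 857 CPM (UMIs per 1000000 UMIs counted) in the KO-labelled library and 1759 CPM in the WT-labelled library; a 3′ tag says nothing of a deletion elsewhere in the gene, so this does not check the labels.

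Type I interferons bind the receptor pair IFNAR1 and IFNAR2, and the kinases bound to them then activate transcription factors that bind interferon-stimulated response elements and switch on antiviral genes. IFIT proteins bind foreign RNA and Rsad2 encodes viperin, a radical SAM enzyme that makes a chain-terminating nucleotide. Neutrophils are short-lived granulocytes that enter the lung from blood, and interferon-stimulated neutrophils are a known state of theirs.

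The 4 Ifit genes of the rule lie in a cluster on chromosome 19, where Ifit1 spans bases 34640889 to 34650009. Rsad2 lies on chromosome 12, bases 26442743 to 26456452, next to Cmpk2, bases 26469117 to 26479837, a mitochondrial nucleotide kinase gene that the rule did not use. Isg15, also outside the rule, lies on chromosome 4. The stretches shown are 120 bases upstream of an annotated transcript start (RefSeq, GRCm38.p6, given on the gene's strand 5′ to 3′), because they carry the motif GAAANNGAAA or its reverse complement TTTCNNTTTC, the core of an interferon-stimulated response element. Capitals mark each match, and the 3 matches in Isg15 overlap.
Ifit1, chr19:34640714-34640833, plus strand: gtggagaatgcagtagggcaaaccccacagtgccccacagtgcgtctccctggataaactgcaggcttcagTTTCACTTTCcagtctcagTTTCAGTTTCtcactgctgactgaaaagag
Ifit3, chr19:34583317-34583436, plus strand: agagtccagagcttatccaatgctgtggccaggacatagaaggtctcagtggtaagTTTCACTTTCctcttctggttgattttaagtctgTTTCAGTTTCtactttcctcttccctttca
Ifit3b, chr19:34607713-34607832, plus strand: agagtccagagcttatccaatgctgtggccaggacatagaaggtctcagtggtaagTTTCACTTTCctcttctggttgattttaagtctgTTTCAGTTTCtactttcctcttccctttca
Rsad2, chr12:26456543-26456662, minus strand: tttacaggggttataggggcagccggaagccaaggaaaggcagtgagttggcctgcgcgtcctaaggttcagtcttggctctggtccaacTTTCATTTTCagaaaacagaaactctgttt
Isg15, chr4:156200855-156200974, minus strand: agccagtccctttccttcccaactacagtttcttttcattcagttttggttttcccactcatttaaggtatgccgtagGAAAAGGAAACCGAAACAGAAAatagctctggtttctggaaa
The Ifit3 and Ifit3b stretches are letter for letter the same, and the genes are near-identical copies, so how their reads were divided between them is uncertain. In the 250 bases before the start, the motif was found in 4 of the 5 rule genes (not in Ifit2) and in 36 of the 92 other interferon genes with a promoter entry (39.1%). It was found in 936 of 27025 genes overall (3.46%), in 1 of 27 NF-kB and inflammatory cytokine genes and in 1 of 20 mature neutrophil marker genes. A match is a description of the letters and not a binding site.

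Rsad2 supplied most of the counts that made a cell a member. In the KO-labelled library the members held 2260 Rsad2, 648 Ifit1, 373 Ifit3, 246 Ifit3b and 124 Ifit2 UMIs. In the WT-labelled library they held 554 Rsad2, 115 Ifit1, 74 Ifit3, 42 Ifit3b and 42 Ifit2 UMIs. At least 1 Rsad2 UMI was present in 526 of 548 KO-labelled members and 130 of 133 WT-labelled members. Rsad2 was the only gene of the 5 in 177 KO-labelled members (32.3%) and 52 WT-labelled members (39.1%), and at least 3 of the 5 genes were seen in 189 (34.5%) and 32 (24.1%). The highest sum in a cell was 57 UMIs in the KO-labelled library and 31 UMIs in the WT-labelled library, and the median member had 5 and 4 UMIs.

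Members just inside the limit were common. A sum of 3 UMIs was found in 141 KO-labelled and 51 WT-labelled neutrophils, and a sum of 2, just outside, in 244 and 87. Sums of 10 or more were found in 92 KO-labelled and 21 WT-labelled neutrophils. Because the limit is a count, it favours deeper cells. In the KO-labelled library the median depth was 1773 UMIs at a sum of 0, 2472 at 1 to 2, 4432 at 3 to 9 and 10086 at 10 or more. In the WT-labelled library it was 1779, 2920, 3442 and 7992 UMIs over the same steps.

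The neutrophil label held for most members and not for all. Members had a median of 128 and 106 neutrophil receptor UMIs (Csf3r, Cxcr2, Il1r2, Retnlg) per 10000 UMIs in the KO-labelled and WT-labelled libraries. Yet 175 KO-labelled members (31.9%) and 18 WT-labelled members (13.5%) also carried 5 or more UMIs of Ccr2, F13a1, Fn1 and Vcan, which mark classical monocytes. Of the interferon-zero neutrophils, 140 (6.29%) and 48 (2.75%) did so. These mixed members were deep, with a median of 18268 and 18515 UMIs, and so supplied 72.3% and 42.0% of all members' UMIs. Their median neutrophil receptor level was 81.2 and 72.2 UMIs per 10000, against 155 and 115 in members with none of the 4 monocyte transcripts. Classical monocytes of the same libraries, taken as cells with at least 2 UMIs each of Ccr2 and F13a1 and under 2% S100a8 and S100a9, had 5.43 and 3.40. Scrublet, a caller of droplets with more than 1 cell, marked 4 of the 175 and 1 of the 18. Whether a mixed barcode is 1 cell with both sets of transcripts or a pair of cells in a droplet cannot be told apart here.

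**Figure D1:**
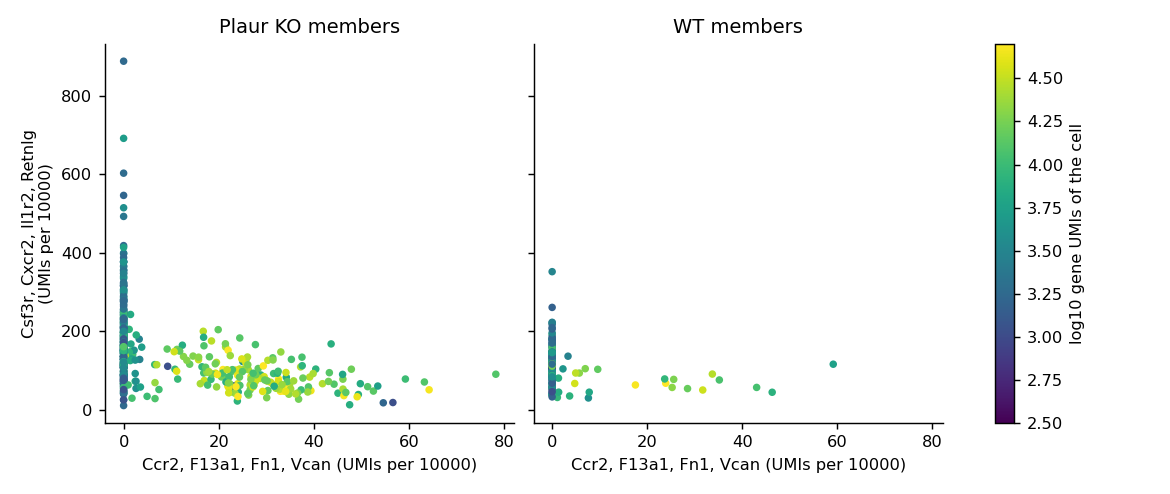
Each point is an interferon-high neutrophil, KO-labelled on the left and WT-labelled on the right; the x axis is UMIs of Ccr2, F13a1, Fn1 and Vcan per 10000 and the y axis UMIs of Csf3r, Cxcr2, Il1r2 and Retnlg per 10000, coloured by log10 of the cell's UMIs. Cells at 0 on the x axis reach the highest receptor levels, and the deep cells lie to the right with fewer receptor UMIs per 10000.

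For this reason the counts of genes past 2-fold are given for all members and for the 349 KO-labelled and 108 WT-labelled members without monocyte transcripts, meaning no UMI of those 4 genes. They were set against the 2018 KO-labelled and 1654 WT-labelled interferon-zero neutrophils that also had none. This choice was made after seeing the data, and values of single genes are from these cells where the text says so. In it the 15 classical monocyte markers summed to 898 CPM in interferon-high and 886 CPM in interferon-zero cells of the KO-labelled library, and to 975 and 958 CPM in those of the WT-labelled library. Over all members the same sums were 4570 and 2337 CPM, and 2419 and 1521 CPM. Because the cells were chosen on monocyte transcripts, the lower sums do not test the choice.

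Other cell types left smaller traces. Over all members, macrophage markers summed to 1131 CPM in members and 881.5 CPM in interferon-zero cells of the KO-labelled library. In the WT-labelled library they summed to 1048 and 1051 CPM. Dendritic cell markers summed to 1204 and 1149 CPM in the KO-labelled library, and to 1031 and 912 CPM in the WT-labelled library. T cell markers summed to 73.2 CPM in members and 110 CPM in interferon-zero cells of the KO-labelled library, and to 86.6 and 100 CPM in the WT-labelled library, with Cd3e at 0 by the rule. Siglech and Ccr9, which mark plasmacytoid dendritic cells, summed to at least 3 UMIs in 5 members of each library. Without monocyte transcripts, dendritic cell markers summed to 658 CPM in members and 654 CPM in interferon-zero cells of the KO-labelled library, and to 892 and 384 CPM in those of the WT-labelled library, where 66 of 89 H2-Aa UMIs lay in 1 member. The part of these traces in the results was not tested. The libraries shared 16 barcodes, and 1 member carried such a barcode.

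Interferon-high cells made up more of the neutrophils in the KO-labelled library. They were 15.8% (14.6 to 17.0) of KO-labelled and 6.13% (5.15 to 7.22) of WT-labelled neutrophils, a ratio of 2.57 (2.13 to 3.14). Without monocyte transcripts the shares were 11.8% (10.7 to 13.05) and 5.38% (4.43 to 6.45), a ratio of 2.20 (1.77 to 2.76). When every cell was thinned to 1000 UMIs and the whole rule applied again, which removes the advantage of deep cells, 3.93% (3.31 to 4.63) of KO-labelled and 1.77% (1.26 to 2.42) of WT-labelled neutrophils were interferon-high. The intervals of the libraries did not overlap under any of these settings, but 1 library stands for each genotype, so library and genotype cannot be told apart.

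**Figure D2:**
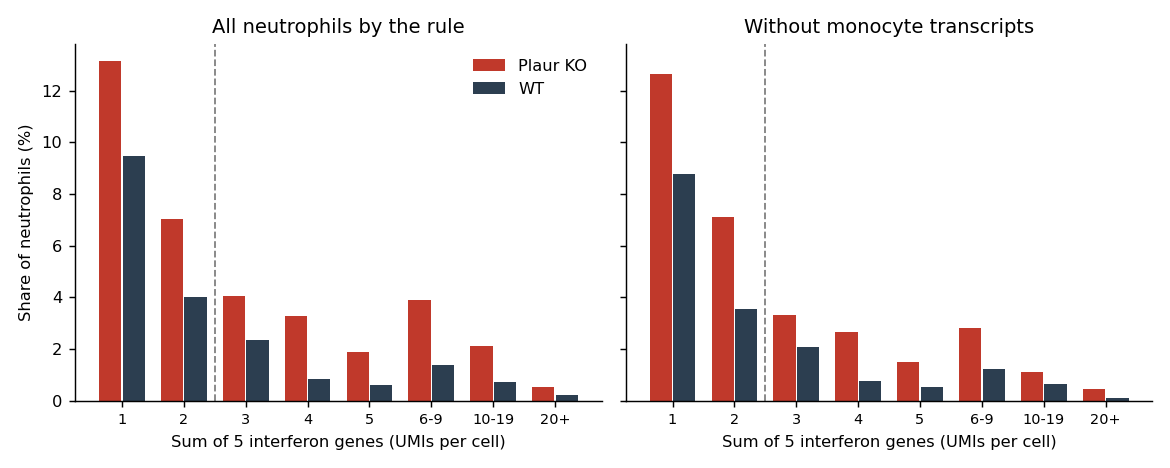
Share of neutrophils (y axis, percent) by the sum of the 5 rule genes (x axis, UMIs per cell) for KO-labelled and WT-labelled libraries, over all neutrophils and over those without monocyte transcripts; cells at 0 are not drawn, and the dashed line marks the limit of 3 UMIs. KO-labelled bars are the taller at each sum drawn.

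The rule genes were also counted in other cell types of the same libraries. At least 1 UMI of the 5 genes was found in 35.95% of KO-labelled and 19.6% of WT-labelled neutrophils, at median depths of 1979 and 1858 UMIs. In B cells, at 2232 and 2453 UMIs, it was found in 4.09% (3.01 to 5.41) and 3.73% (2.82 to 4.84). In T cells, at 3424 and 3765 UMIs, the shares were 12.85% and 11.6%. They were 12.5% and 19.4% in macrophages and 34.6% and 21.2% in classical monocytes, which were deeper. At least 3 UMIs were found in 0.622% of KO-labelled and 0.898% of WT-labelled B cells, and in 1.25% and 1.94% of T cells. In macrophages, at 5677 and 7411 UMIs, at least 3 UMIs were found in 3.39% (2.06 to 5.25) of KO-labelled and 6.30% (4.40 to 8.69) of WT-labelled cells, so the WT-labelled macrophage share was near the WT-labelled neutrophil share and the libraries stood in the other order. In classical monocytes, at 6715 and 6717 UMIs, at least 3 UMIs were found in 12.8% (9.45 to 16.9) and 5.31% (1.97 to 11.2). Thinned to 1000 UMIs, at least 3 UMIs were left in 0.723% of KO-labelled and 1.68% of WT-labelled macrophages, in 0.597% of KO-labelled monocytes and in 0 of 113 WT-labelled monocytes. Thinned in the same way, 3.97% of KO-labelled and 1.77% of WT-labelled neutrophils kept 3 UMIs. The part of free RNA in these counts was not tested.

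Interferon genes that the rule did not use were also higher in the members. Over all members, 25 of the 103 such genes measured were at least 2-fold higher than in interferon-zero neutrophils of the same library, in both libraries. Of all 8419 genes measured, 170 were, which is 2.02%. The median log2 ratio of the 103 genes was 0.63 in the KO-labelled and 0.90 in the WT-labelled library, beside 0.11 in both for all genes. Without monocyte transcripts, 29 of 91 interferon genes (31.9%) were at least 2-fold higher in both libraries, beside 52 of 7072 genes (0.735%), and the medians were 0.89 and 0.94, beside -0.02 and 0.00. There 81 of the 91 lay above interferon-zero cells in both libraries and 3 below in both (Tyk2, Irf3 and Ifitm2). The high and zero cells were parted by related genes of the same cells, so these counts describe the members and test nothing.

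The lists behind this count did not move alike. Without monocyte transcripts, the ISG15 pathway had a median log2 ratio of 1.41 in the KO-labelled and 1.90 in the WT-labelled library over 6 genes. The nucleic acid sensors stood at 1.22 and 0.96 over 9 genes and the OAS family at 1.03 and 1.22 over 7 genes. The 47 antiviral effectors measured had medians of 0.90 and 0.98, and the 9 GBP and IRG GTPases 0.95 and 0.80. The GTPases stood lower over all KO-labelled members, at 0.29, beside 0.99 in the WT-labelled library. Interferon signalling genes had medians of 0.40 and 0.52 over 14 genes, and MHC class I presentation genes 0.48 and 0.32 over 18 genes. Usp18 was the 1 signalling gene, and no MHC class I gene, at least 2-fold higher in both libraries.

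**Figure D3:**
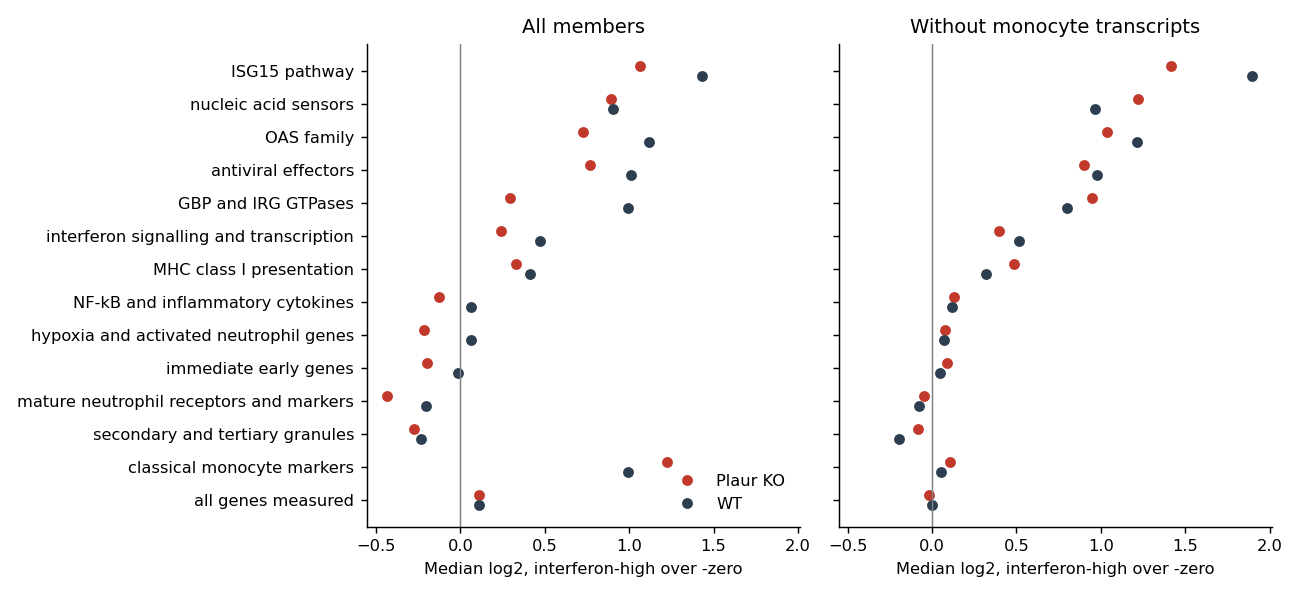
Median log2 ratio (x axis) of interferon-high over interferon-zero neutrophils for 13 gene lists and all genes, over all members on the left and without monocyte transcripts on the right; red points are the KO-labelled and dark points the WT-labelled library. Classical monocyte markers have medians of 1.23 and 0.99 over 15 measured on the left. On the right they have 0.11 and 0.06 over 8 measured, in cells chosen for having none of 4 monocyte transcripts. The interferon lists drawn, down to MHC class I presentation, stay above the median of all genes in both panels.

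Isg15, a ubiquitin-like protein that is joined to other proteins, had the most counts of its pathway. Without monocyte transcripts it stood at 839 CPM in interferon-high and 233 CPM in interferon-zero cells of the KO-labelled library, a log2 ratio of 1.85 (1.72 to 1.97). In the WT-labelled library it stood at 607 and 177 CPM, a log2 ratio of 1.77 (1.58 to 1.97). Usp18, which removes ISG15 and damps IFNAR signalling, had log2 ratios of 2.63 (2.09 to 3.20) and 2.49 (1.59 to 3.36). Herc6, the ISG15 ligase in mouse, had 2.23 (1.93 to 2.53) and 2.09 (1.61 to 2.56). All 3 were also past 2-fold over all members, where Isg15 had ratios of 1.293 and 1.501, and the direction was the same in both libraries.

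Cmpk2, the neighbour of Rsad2, had 154 CPM in interferon-high and 27.4 CPM in interferon-zero cells of the KO-labelled library without monocyte transcripts. It had 115 and 15.7 CPM in those of the WT-labelled library. Its log2 ratios were 2.49 (2.15 to 2.83) and 2.87 (2.33 to 3.42). Over all members the ratios were 1.40 and 2.56, and its level in all KO-labelled members was 64.8 CPM.

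Among sensors of foreign RNA and DNA, Ifih1 (MDA5) had log2 ratios of 1.54 and 1.84 without monocyte transcripts. Ddx58 (RIG-I) had 1.32 and 1.12, Eif2ak2 (PKR) 1.55 and 1.09, and Zbp1, a sensor of Z-form nucleic acids, 1.22 and 1.10. Oasl1, of the family of OAS proteins, had 1.83 and 2.02, and Oas3, an oligoadenylate synthetase, 1.22 and 1.38. The sensors and OAS genes named here were past 2-fold in both libraries in these cells. Over all members none of them was, with Ifih1 at 0.73 and 1.55 and Oasl1 at 0.89 and 1.64. There 1 of 10 sensors and 1 of 7 OAS genes was past 2-fold in both libraries.

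Of the antiviral effectors, Slfn4 and Slfn5 of the schlafen family had the most counts among those past 2-fold. Slfn5 had 628 CPM in interferon-high and 194 CPM in interferon-zero cells of the KO-labelled library without monocyte transcripts, and 453 and 89.9 CPM in those of the WT-labelled library. Slfn4 had log2 ratios of 1.29 and 1.41, against 0.46 and 1.00 over all members. Xaf1 had 2.02 and 1.67, and Ifi204, a DNA-binding protein of the p200 family, 1.60 and 1.75. Bst2 (tetherin) had 1.65 and 2.53, but 25 of its 40 UMIs in these WT-labelled members came from 1 cell that also had Siglech and Ccr9 UMIs. Ifitm1 and Ifitm2, which hinder virus entry, had ratios between -0.11 and 0.01 at high counts, and Ifitm3 had 0.65 and 0.66.

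The signalling genes upstream differed less. Ifnar1 stood at 68.5 CPM in interferon-high and 66.2 CPM in interferon-zero cells of the KO-labelled library without monocyte transcripts, and at 83.9 and 75.6 CPM in those of the WT-labelled library. Ifnar2 had log2 ratios of -0.04 (-0.22 to 0.14) and 0.27 (0.01 to 0.52). Irf7, the factor that amplifies interferon production, had 0.71 (0.50 to 0.91) and 1.16 (0.84 to 1.48). Of the ligands, no UMI of Ifnb1, Ifna1, Ifna2, Ifna4, Ifna5, Ifnl2 or Ifnl3 was counted in these cells. Ifng had 0 UMIs in the members of either library there, with 5 UMIs in KO-labelled and 17 UMIs in WT-labelled interferon-zero cells.

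**Figure D4:**
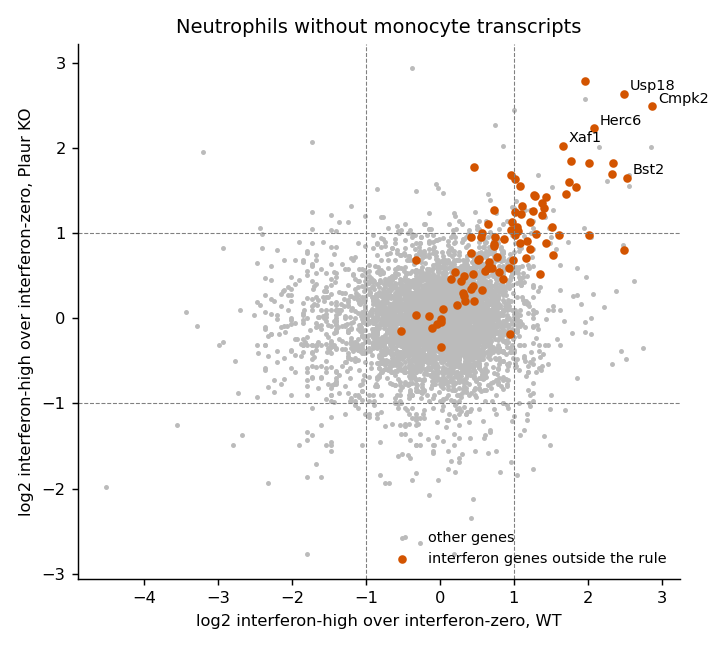
Log2 ratio of interferon-high over interferon-zero neutrophils without monocyte transcripts in the KO-labelled library (y axis) and the WT-labelled library (x axis); each point is a gene, orange points are interferon genes outside the rule, the 4 rule genes measured are not drawn, and dashed lines mark 2-fold. Usp18, Cmpk2 and Herc6 lie past 2-fold on both axes at the upper right; the medians of all genes are -0.02 (KO-labelled) and 0.00 (WT-labelled).

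The remaining 19 genes past 2-fold without monocyte transcripts were on none of the interferon lists; they were named after their values were seen. Rnf213, which encodes a large ubiquitin ligase, had log2 ratios of 1.54 (1.33 to 1.76) in the KO-labelled and 1.52 (1.20 to 1.83) in the WT-labelled library. Ifit1bl2, an Ifit-like gene, had 2.44 (1.92 to 2.97) and 1.01 (-0.05 to 1.96), and Fap, a surface protease gene, 2.01 (1.30 to 2.72) and 2.15 (0.67 to 3.53). Calhm6 had 2.01 and 2.85 on 15 and 12 UMIs in members, and Gm13822 had 1.68 and 1.33. Ddb2, Rmi1 and Phka2 had intervals that reached 0 in both libraries. Over all members only 22 of the 52 genes were past 2-fold, and 148 others were, 6 of them classical monocyte markers and 12 interferon genes.

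Below the limit the same genes were already higher. Without monocyte transcripts in the KO-labelled library, Isg15 was at 233 CPM at a rule sum of 0, 477 CPM at 1 to 2, 710 CPM at 3 to 9 and 1456 CPM at 10 or more. In the WT-labelled library it was at 177, 425, 633 and 537 CPM over the same steps. The summed interferon genes outside the rule were at 16443, 20847, 23939 and 30972 CPM in the KO-labelled library. In the WT-labelled library they were at 15238, 20068, 23377 and 22579 CPM. The values climbed at each step in the KO-labelled library, and in the WT-labelled library up to sums of 3 to 9; its last step holds 15 cells, against 46 KO-labelled cells. Thinned to 1000 UMIs per cell, Isg15 was at 269, 650 and 1216 CPM at sums of 0, 1 to 2 and 3 to 9 in the KO-labelled library and at 204, 615 and 970 CPM in the WT-labelled library.

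**Figure D5:**
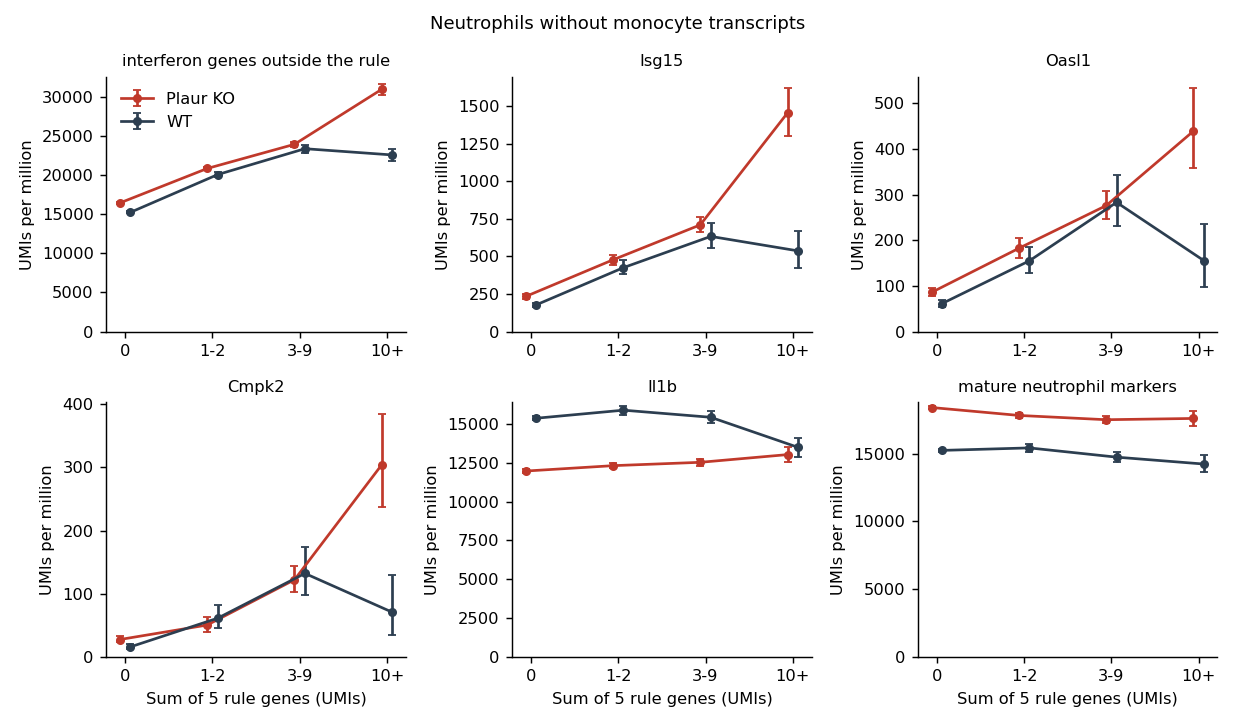
CPM (y axis) by the sum of the 5 rule genes (x axis) in neutrophils without monocyte transcripts, for the summed interferon genes outside the rule, 4 single genes and the summed mature neutrophil markers that the rule did not use; red is KO-labelled, dark is WT-labelled, and bars are 95% counting intervals. Isg15 and Oasl1 stand higher at each of the first 3 steps in both libraries, and Il1b stays between 11979 and 15904 CPM.

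Members with Rsad2 as their only rule gene were set beside members with an Ifit UMI; this split was made after seeing the data. Without monocyte transcripts there were 217 KO-labelled members with an Ifit UMI and 132 with Rsad2 alone, and 60 and 48 in the WT-labelled library. In the KO-labelled library Isg15 was at 1006 CPM with an Ifit UMI, 548 CPM with Rsad2 alone and 233 CPM in interferon-zero cells. In the WT-labelled library it was at 731, 416 and 177 CPM in the same order. Cmpk2 was at 185, 99.2 and 27.4 CPM in the KO-labelled library and at 119, 109 and 15.7 CPM in the WT-labelled library. Cells called on Rsad2 alone lay between the other members and the interferon-zero cells for both genes in both libraries, though for Cmpk2 in the WT-labelled library the intervals of the member groups overlapped. Cd274 did not follow this order in the KO-labelled library, and Bst2 did not clearly follow it. Cd274 was at 502 CPM with an Ifit UMI, 676 CPM with Rsad2 alone and 342 CPM in interferon-zero cells there. Bst2 was at 92.3, 14.5 and 20.4 CPM in the same order. Its value with Rsad2 alone rests on 7 UMIs. The interval of that value (5.82 to 29.8) covered that of the interferon-zero cells (16.3 to 25.1).

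Chemokines and ligands that interferon induces were mixed. Cxcl10, which draws CXCR3-bearing lymphocytes, had log2 ratios of 1.24 (1.08 to 1.39) in the KO-labelled and 0.76 (0.61 to 0.91) in the WT-labelled library without monocyte transcripts. Cd274, which encodes PD-L1, had 0.73 (0.60 to 0.85) and 0.84 (0.71 to 0.98). Over all members Cxcl10 had 0.42 and 0.69 and Cd274 0.14 and 0.52. Cxcl9 had -0.38 and 2.45, and 75 of its 122 UMIs in those WT-labelled members came from 1 cell. None of the 12 genes of this list that were measured was past 2-fold in both libraries.

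Inflammatory and activation genes stood near level between the classes without monocyte transcripts. Without monocyte transcripts, Il1b stood at 12628 CPM in interferon-high and 11979 CPM in interferon-zero cells of the KO-labelled library, and at 14910 and 15384 CPM in those of the WT-labelled library. The 30 NF-kB and inflammatory cytokine genes had median log2 ratios of 0.13 and 0.12, the 22 hypoxia and activated neutrophil genes 0.08 and 0.07, and the 28 immediate early genes 0.09 and 0.05. None of these genes was past 2-fold in both libraries in either direction. Over all members Il1b had log2 ratios of -0.41 and -0.20. Plaur had ratios of 0.11 (0.03 to 0.19) and -0.09 (-0.19 to 0.00).

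Neutrophil identity genes were near level as well once mixed cells were left out. The 24 mature neutrophil receptors and markers, some of which the neutrophil rule used for both classes, had median log2 ratios of -0.05 and -0.08, against -0.44 and -0.20 over all members. Of the granule genes, Lcn2 had ratios of 0.00 and -0.05 and Mmp9, a gelatinase of tertiary granules, -0.19 and -0.22. Ngp and Camp, secondary granule genes of immature neutrophils, were lower in summed UMIs. Ngp had -1.98 (-2.79 to -1.27) in the KO-labelled library and -4.52 (-9.83 to -2.02) in the WT-labelled library, where members held 1 UMI. In the KO-labelled library 216 Ngp UMIs lay in 43 of 2018 interferon-zero cells and 17 in 11 of 349 members. Cells with an Ngp UMI were thus no rarer among members there, but members were deeper, at a median of 2932 UMIs against 1714. In the WT-labelled library 165 UMIs lay in 29 of 1654 interferon-zero cells and 1 UMI in 1 of 108 members. Whether members held fewer immature neutrophils was not tested. Camp had -1.26 and -3.55, but its 169 UMIs in WT-labelled interferon-zero cells lay in 3 cells and its 13 UMIs in KO-labelled members in 1 cell. In all, 25 of 7072 genes were at least 2-fold lower in both libraries (0.354%), and over all members 15 of 8419 (0.178%). Of the 25, all but S100a10, at 5 UMIs, held only 1 or 2 UMIs in the WT-labelled members. Only for Camp, Hsd17b4, Lpl and Ngp did the WT-labelled interval exclude equal levels.

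By the ranking over all members, the 12 genes most clearly higher were Cmpk2, F13a1, Fn1, Ifi203, Ifi209, Ifi211, Ifi213, Isg15, Mndal, Ms4a4c, Plac8 and Usp18. Of these, F13a1 and Fn1 are monocyte genes by definition of the mixed cells, and Ms4a4c stood at 241 CPM in members and 97.5 CPM in interferon-zero cells of the KO-labelled library but at 2.26 and 3.04 CPM without monocyte transcripts. Ifi213 held 143 UMIs at rule sums of 3 to 9 and 60 at 10 or more in KO-labelled members, but 4 and 5 without monocyte transcripts. There Cmpk2, Ifi203, Ifi211, Isg15 and Usp18 were past 2-fold in both libraries, and Ifi209, Ifi213, Mndal, Ms4a4c and Plac8 were not. Among the 12 most clearly lower were AY036118, Camp, Ccl17, Cdk8, Cmss1, Gm15564, Gm42418, Gphn, Lars2, Nfia and Ngp. Gm42418, which lies over ribosomal RNA repeats, had log2 ratios of -0.51 and -0.46 over all members and -0.08 and -0.21 without monocyte transcripts. Ccl17, a chemokine for CCR4-bearing cells, had -1.10 and -1.71 over all members but 0.94 and 0.86 without monocyte transcripts.

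Between the libraries, classical monocyte markers stood higher in KO-labelled members, at a median log2 difference of 1.28 from WT-labelled members over 15 markers, beside 1.17 in interferon-zero cells. Over all members, 1072 of 9277 genes were at least 2-fold higher in KO-labelled than in WT-labelled members (11.6%) and 347 at least 2-fold lower (3.74%). Without monocyte transcripts these were 233 of 5507 (4.23%) and 193 (3.5%). The 8 genes most clearly higher over all members included Ccl24, Fcgr1, Hprt, Mrps18b, Ms4a6d, Mycbp and Tmem176b. Of these, Ccl24 and Mycbp held 331 and 71 UMIs in all KO-labelled members, but 10 and 7 in those without monocyte transcripts. WT-labelled members held 0 UMIs of either gene. Fcgr1, which encodes a high-affinity Fc receptor, had a log2 ratio of 2.56 in members and 1.79 in interferon-zero cells. Hprt had 3.32 in members and 3.82 in interferon-zero cells, so the same difference was present outside the members. Of the 8 most clearly lower (Apoe, Cxcl9, Hdac9, Klrd1, Nr4a3, Ptgs2, Setbp1 and Tagap), Apoe had -3.41 and -4.83, and Ptgs2, which encodes cyclooxygenase-2, -1.84 and -1.43, over the same classes. In WT-labelled members, 28 of 35 Klrd1 UMIs lay in the 5 members with Siglech and Ccr9 UMIs, as did 31 of 50 Hdac9 and 37 of 54 Setbp1 UMIs.

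The interferon genes were compared between the members of the libraries as well. Over all members, 107 interferon genes outside the rule had a median log2 ratio of -0.04 for KO-labelled over WT-labelled members, beside 0.31 in interferon-zero cells. Of the 107, 6 were at least 2-fold higher and 6 at least 2-fold lower, beside 11.6% and 3.74% of all 9277 genes measured. Without monocyte transcripts, 90 interferon genes outside the rule had a median log2 ratio of 0.13 for KO-labelled over WT-labelled members, beside 0.16 in interferon-zero cells. Irf1 and Mndal were at least 2-fold lower in KO-labelled members, at -1.12 and -1.46, and none was 2-fold higher. In interferon-zero cells their ratios were -1.05 and 0.23. Of all 5507 genes measured in members without monocyte transcripts, 3.5% were at least 2-fold lower and 4.23% at least 2-fold higher. Isg15 had 839 CPM in KO-labelled and 607 CPM in WT-labelled members, a log2 ratio of 0.47, beside 0.40 in interferon-zero cells. Cd274 had ratios of -1.03 in members and -0.91 in interferon-zero cells, and Cxcl10 -1.004 and -1.482.

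At the surface, the tags for CD11b and Ly-6C gave more raw counts in members. CD11b no longer did in members chosen again on thinned RNA counts. CD11b averaged 361 UMIs in interferon-high and 121 UMIs in interferon-zero cells of the KO-labelled library, and 438 and 160 UMIs in those of the WT-labelled library; B cells averaged 12.6 and 11.3. Ly-6C averaged 134 and 40.8 UMIs, and 74.6 and 27.9 UMIs, with B cells at 21.3 and 10.8. Without monocyte transcripts CD11b averaged 202 and 110 UMIs, and 319 and 152 UMIs, and Ly-6C 49.7 and 30.6, and 45.0 and 25.3. As a share of each cell's antibody UMIs, averaged over cells, the classes lay close together. CD11b took 76.8% in members and 73.2% in interferon-zero cells of the KO-labelled library, and 83.4% and 81.3% in the WT-labelled library. Ly-6C as such a share was lower in members, at 21.0% and 23.2% in the KO-labelled library and at 14.3% and 15.2% in the WT-labelled library. This order depends on the summary. In mean counts the KO-labelled log2 ratio was 1.71 for Ly-6C and 1.58 for CD11b, and the WT-labelled ratios were 1.42 and 1.45. Members were also deeper in RNA. With members chosen again after thinning each cell to 1000 UMIs, the mean log2 ratio over both libraries was -0.19 for CD11b, against 1.52 as deposited, and -0.12 for Ly-6C, against 1.56. Ly-6C then had 0.14 in the WT-labelled library. The antibody counts were not thinned, and the classes then held other cells, with 137 KO-labelled and 38 WT-labelled members. The part of depth in the raw tag counts was not tested. CD14, CCR3 and ST2 averaged 0.722 to 4.47 UMIs in members, where B cells averaged 0.754 to 3.03. CCR3 and ST2 sat near the B cell level. CD14 averaged 3.34 UMIs in KO-labelled and 4.47 UMIs in WT-labelled members, somewhat above 2.56 and 3.03 UMIs in B cells. In interferon-zero cells CD14 averaged 2.835 and 3.407 UMIs, also in raw counts not scaled to depth. Of the RNA for these targets without monocyte transcripts, Itgam, which encodes CD11b, had log2 ratios of -0.07 and -0.11. Ly6c2 had 0.48 (0.13 to 0.83) and 1.13 (0.62 to 1.61) in CPM. The Ly-6C tag had 0.70 and 0.83 in raw UMIs per cell, not scaled to depth, so the measures are unlike. As a share of antibody UMIs the tag was lower in these members, at 18.9% and 22.7% (KO-labelled) and 12.9% and 14.9% (WT-labelled). In the WT-labelled library 15 of the 47 Ly6c2 UMIs in members lay in the 1 member with Siglech and Ccr9 UMIs. Il1rl1, which encodes ST2, had 4 and 2 UMIs in the members of the KO-labelled and WT-labelled libraries.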

How the data were processed

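The authors deposited filtered gene and antibody matrices of UMI counts, 1 gene and 1 antibody library per genotype; the submitters' processing notes name Cell Ranger 7.0.0 and 7.1.0 and mm10. Members and gene lists were chosen with earlier results of these data known. UMIs were summed per library and cell class and scaled to CPM (counts per 1000000 UMIs). Ratios carry exact conditional binomial, shares Clopper-Pearson and levels Poisson 95% intervals, which cover counting error only; no test was made, with 1 library per genotype. A gene was measured with at least 20 UMIs over the classes compared in each library, and a class at 0 UMIs was set to 3 UMIs. The medians and counts use log2 ratios, past 2-fold in both libraries. Named genes were the 12 highest and 12 lowest ratios, ranked by whichever interval end lay closer to 0 among genes with 50 UMIs or more, the 8 highest and 8 lowest between libraries, the most counted and most changed of each list, and a fixed few such as Isg15 and Plaur. Genes named outside this rule in the text were chosen after their values were seen. Scrublet (scanpy 1.11.5, expected rate 8%) marked 457 KO-labelled (4.55%) and 260 WT-labelled (2.91%) cells, which were kept. Members without Ccr2, F13a1, Fn1 and Vcan UMIs were a choice made after seeing the data. Of 497 listed symbols, 9 without a match were not analysed here, and a few genes that the rule names are not reported here. Ratios were checked on simulated counts. Python 3.11.15, SciPy 1.17.1 and edgeR 4.0.16 (TMM factors) were used. Promoter stretches came from RefSeq (GRCm38.p6).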

Additional observations from a re-analysis of the deposited data

Results flagged for a closer look

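Some genes lay higher in interferon-high than in interferon-zero neutrophils of 1 library and lower in the other, with counting intervals on opposite sides of 0 over all members. The difference between the libraries was not tested, since there is 1 library per genotype. Log2 ratios of interferon-high over interferon-zero cells are given for the KO-labelled library first. Acod1, which makes itaconate, had -0.26 and 0.16. Irf1, an interferon-induced transcription factor, had -0.23 and 0.14. Ccl24, an eosinophil-attracting chemokine, had 2.32 on 331 UMIs in 30 members, and in the WT-labelled library a bound of -1.99, where members held 0 UMIs. Mycbp had 0.56 and a bound of -0.53, where WT-labelled members held 0 UMIs. Ccl5 had -1.82 and 0.80, with 46 UMIs in 8 WT-labelled members. Nkg7, a cytotoxic granule gene, had -0.97 and 1.07, with 16 UMIs in 4 WT-labelled members. Cxcl9 had -1.03 and 1.51, and 75 of its 153 UMIs in WT-labelled members lay in 1 cell. Hdac9 had -0.73 and 2.42, and 31 of its 50 UMIs in WT-labelled members lay in the 5 members with Siglech and Ccr9 UMIs. Setbp1 had -0.59 and 2.96, and 37 of its 54 UMIs lay in the same 5 members. Most of these genes did not keep their order without monocyte transcripts. In CPM there, Acod1, Irf1 and Setbp1 stood higher in members of both libraries, and Ccl5 and Mycbp lower in both. Cxcl9, Hdac9 and Ccl24 kept opposite directions, on 122, 7 and 0 UMIs in WT-labelled members. Nkg7 stood higher in KO-labelled members and lower in WT-labelled members, which held 1 UMI.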

How the results depend on the processing

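The KO over WT ratio of the share of interferon-high cells kept its direction and size under every alternative run, with log2 ratios between 1.14 and 1.52 (1.36 as reported). Counts of genes past 2-fold in both libraries depended on the setting. The 170 of 8419 genes higher became 89 of the 4101 measured after thinning, 52 without monocyte transcripts, 65 against all neutrophils under 3 UMIs, 91 with TMM factors, 341 and 73 with minimums of 1 and 50 UMIs, and 273 with each cell scaled alike. The 15 lower became 34 at sums of 10 or more, 26 after thinning, 7 without Scrublet calls, 8 at 5% S100a8 and S100a9, 25 without monocyte transcripts, 24 against all neutrophils under 3 UMIs, 36 with TMM factors, 38 and 6 with minimums of 1 and 50 UMIs, and 34 with each cell scaled alike. The 25 interferon genes outside the rule became 14 against all neutrophils under 3 UMIs and 51 with each cell scaled alike. Between the libraries, the 1072 of 9277 genes higher in KO-labelled members became 118 of the 1444 measured after thinning, 233 without monocyte transcripts, 668 at 50 UMIs and 1674 with each cell scaled alike. The 347 lower became 80, 193 and 176 under the first 3 of these and 831 at 1 UMI. The CD11b tag, with a mean log2 ratio of 1.52 over both libraries, had 1.30, 1.68 and 2.10 at sums of at least 2, 5 and 10, 1.42 at 5% S100a8 and S100a9, 0.97 without monocyte transcripts, 1.37 against all under 3 UMIs, 1.12 by medians, 0.053 as a share of antibody UMIs and -0.19 after thinning. Ly-6C, with 1.56, had 1.30 and 1.96 at sums of at least 2 and 10, 1.18 at 5% S100a8 and S100a9, 0.76 without monocyte transcripts, 0.70 by medians, -0.12 as a share and -0.12 after thinning. Thinning and the UMI minimums also change how many genes are measured; other causes of these moves were not tested. TMM factors moved the median log2 ratio of all genes to -0.02 in the KO-labelled and -0.07 in the WT-labelled library, against 0.11 in both. The 103 interferon genes outside the rule then had medians of 0.51 and 0.72, and 1.09 and 1.24 with each cell scaled alike. No paired analysis was possible because each genotype has 1 library, so the genotypes share no replicate numbers beyond 1; interferon-high and interferon-zero cells were compared within each library. Depth limits what is seen: the median member holds 5 (KO-labelled) or 4 (WT-labelled) UMIs of the rule genes, and many genes hold few UMIs in the 133 WT-labelled members.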
